A study of Mus musculus with 2 samples.

Results

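The FOS, JUN and EGR genes studied here are 10 transcription factor genes: Fos, Fosb, Fosl1, Fosl2, Jun, Junb, Jund, Egr1, Egr2 and Egr3. They were taken by name from the platform annotation of the array, which gave each of them 1 probe set (a group of probes read as 1 value), and all 10 were found among 19938 named genes. The male C57BL/6J mice ate standard chow, and RNA was taken from skeletal muscle of the hindlimb. The wild-type array and the Syn4 transgenic array (syntaxin 4 overexpression) were the only 2 arrays, 1 per genotype. The labels state neither the promoter of the transgene, nor the age of the mice, nor how many mice stood behind an array. Each value is therefore a single measurement with no error, no difference was set against a spread between mice, and no test was made. As a check of the labels, the log2 intensity of Stx4a, the gene of the transgene, was 8.84 in the array labelled wild type and 12.20 in the array labelled transgenic.

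FOS and JUN proteins are bZIP factors that pair through a leucine zipper to form AP-1, which binds short palindromic DNA sites, and JUN proteins can also pair with each other. EGR proteins bind GC-rich sites through zinc fingers. Most of these genes are immediate early genes: growth factors, stretch, contraction or injury switch on their transcription within minutes through MAP kinases, CREB and serum response factor (SRF), with no need for new protein. In muscle tissue they respond to exercise and to handling of the sample, EGR3 is needed for muscle spindles, and EGR2 is the main driver of myelin genes in Schwann cells.

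The upstream sequences of 3 members are shown because they belong to genes that differed (Fos and Egr2) and to an AP-1 partner gene whose difference was small (Jun). Promoter windows in RefSeq (GRCm38.p6) were matched for 7 of the 10 genes, in 11 windows because Egr2 had 5 annotated starts; Fosl1, Egr1 and Egr3 had no entry. The 250 bases before the start are printed 5′ to 3′ on the gene's strand, for Fos chr12:85473640-85473889 (plus strand), for the third listed start of Egr2 chr10:67537619-67537868 (plus strand) and for Jun chr4:95052223-95052472 (minus strand). Capitals mark motif matches.
Fos: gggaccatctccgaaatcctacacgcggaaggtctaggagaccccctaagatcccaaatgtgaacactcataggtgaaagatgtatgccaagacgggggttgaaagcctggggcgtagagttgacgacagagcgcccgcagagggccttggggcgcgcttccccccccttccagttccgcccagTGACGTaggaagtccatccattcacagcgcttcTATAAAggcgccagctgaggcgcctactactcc
Egr2: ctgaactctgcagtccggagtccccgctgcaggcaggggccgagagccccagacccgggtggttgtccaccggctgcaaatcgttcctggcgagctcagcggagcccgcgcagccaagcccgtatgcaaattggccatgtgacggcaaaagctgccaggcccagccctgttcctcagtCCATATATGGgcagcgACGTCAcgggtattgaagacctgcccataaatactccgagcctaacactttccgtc
Jun: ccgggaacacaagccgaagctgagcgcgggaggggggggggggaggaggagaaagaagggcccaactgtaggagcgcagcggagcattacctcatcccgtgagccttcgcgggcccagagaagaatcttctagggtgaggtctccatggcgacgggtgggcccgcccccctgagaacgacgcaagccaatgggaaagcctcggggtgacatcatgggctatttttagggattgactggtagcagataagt

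Motifs were searched on both strands. They were the CArG box (the SRF site), the cyclic AMP response element TGACGTCA, the first 6 letters of that element (here the CRE core, which the full element contains), the AP-1 site TGANTCA, the EGR site GCGNGGGCG and the TATA box TATAAA. No other motif holds another. In Fos, the CRE core stood 66 to 61 bases and the TATA box 33 to 28 bases before the start. In the Egr2 window shown, the CArG box CCATATATGG stood 72 to 63 bases before the start, followed by the CRE core, read on the other strand, at 56 to 51 bases. The windows of 3 of the 5 Egr2 starts overlap and hold this same CArG box, and another window holds a different match, CCTTTTTTGG. In the Jun window none of these motifs had an exact match. That window does hold tgacatca, a near form of the cyclic AMP element that the search does not count. GCGGGGGCG, an EGR match, stood 50 to 42 bases before the start of Fosb and 79 to 71 bases before that of Fosl2.

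Of 32851 mouse promoter windows of the same length, 1.47% held a CArG box, 1.55% the full cyclic AMP element, 6.47% the CRE core, 6.75% the AP-1 site, 4.7% the EGR site and 12.4% the TATA box. No member window held an exact match to the full cyclic AMP element or to TGANTCA. Near forms of a motif and sites farther upstream were not searched. The motifs were chosen from general knowledge with the values known, a match is only a description, and binding was not measured.

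In the transgenic array Egr1, Egr2 and Fos gave 1.77 to 2.31 times the wild-type signal, and the other 7 members lay within 1.5-fold. All values are log2 intensities after RMA, and a difference is transgenic minus wild type. Of the 10 members, 3 were at least 1.5-fold higher (a log2 difference of 0.58) and 0 at least 1.5-fold lower, where 1.76% of all 19938 genes were higher and 1.19% lower by that much. Among the 9974 genes whose higher value reached the median of 6.79 (the level filter), the shares were 2.66% and 1.71%. The filter was met by 8 members, but Fos and Egr2 met it only through the transgenic array. By sign, 5 members were above 0 and 5 below, where 46.9% of all genes were above 0 and 49.6% below, and 53.5% and 44.2% of the genes that passed the filter. The median difference of the members was 0.02, beside 0.00 over all genes and 0.03 over those that passed the filter. The members were thus split between 3 genes of higher signal in the transgenic array and 7 of near-equal signal.

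**Figure D1:**
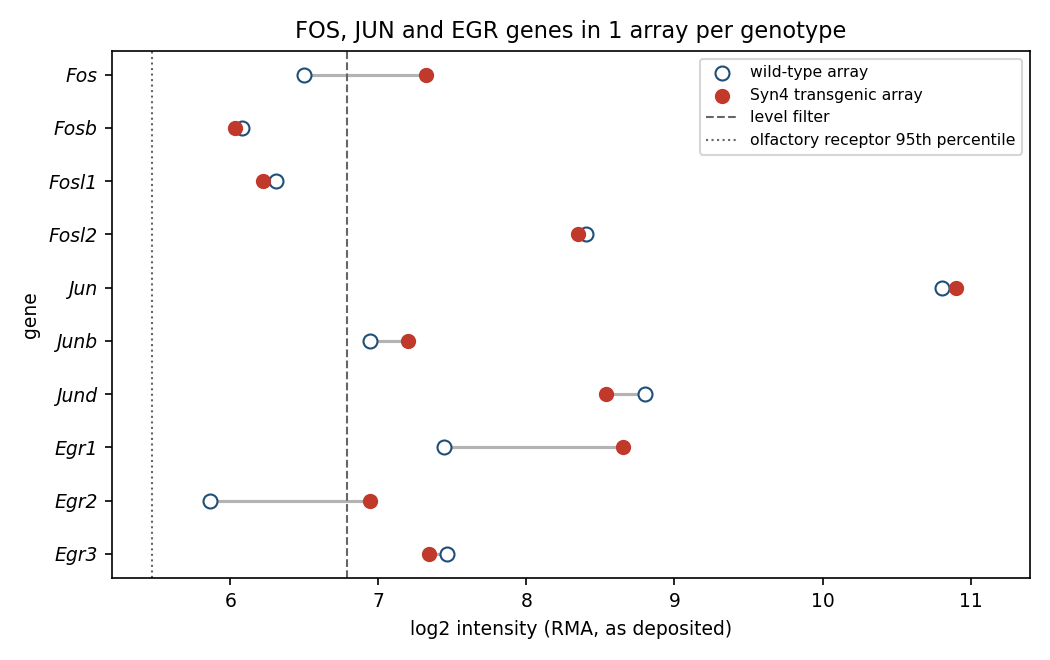
Log2 intensity (horizontal axis) of the 10 genes (vertical axis) in the wild-type array (open circles) and the Syn4 transgenic array (filled circles), 1 array per genotype, with the level filter of 6.79 dashed and the olfactory receptor level of 5.47 dotted. The long lines of Egr1, Egr2 and Fos point to higher transgenic signal, and the circles of the other 7 genes lie close together.

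Among the EGR genes, Egr1 had the largest difference of all members. Its log2 intensity was 7.44 in wild-type muscle and 8.65 in transgenic muscle, a difference of 1.21 or 2.31-fold. Both values lay above the level filter. EGR1 is the broadly induced member of the family, acting on growth factor, matrix and coagulation genes. The difference ranked 50 from the top among the 9974 genes, and 0.662% of those genes had a larger difference in either direction.

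Egr2, the myelin regulator, had a log2 intensity of 5.86 in wild-type muscle and 6.94 in transgenic muscle. The difference of 1.08, or 2.11-fold, was exceeded in size by 0.912% of the genes that passed the filter. Egr2 met that filter only through its transgenic value, so this share depends on the difference itself and is only a description. The wild-type value was low, though above 5.47, which is the 95th percentile of 1027 olfactory receptor genes that muscle should hardly express. The fold of Egr2 therefore rests on a dim wild-type value. Egr3, the spindle factor, went the other way by a small amount, from 7.46 in wild-type to 7.34 in transgenic muscle, a difference of -0.12. Of the genes that passed the filter, 56.8% had a larger difference. Egr4, the remaining gene of the family, named after its value was seen, is not among the 10 and had values of 6.24 and 6.26, under the filter.

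Of the FOS genes, only Fos itself passed 1.5-fold. Fos, the partner of JUN that rises fastest after a stimulus, read 6.50 in wild-type and 7.32 in transgenic muscle. The difference was 0.82, or 1.77-fold, and 1.84% of the genes that passed the filter had a larger one. Fos itself met the filter only through the transgenic array, so this share too is only a description. Fosl2, which encodes the FOS relative FRA2, was at 8.40 and 8.35, a difference of -0.05. Fosb, whose short splice form builds up under repeated stimulation, was at 6.08 and 6.03, also a difference of -0.05. Fosl1, which encodes FRA1 and is itself an AP-1 target, was at 6.31 and 6.22, a difference of -0.09. Fosb and Fosl1 stayed under the level filter in both arrays, so their near equality says little about genes with such a low signal.

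The JUN genes had small differences of mixed sign. Jun, the main AP-1 partner, read 10.81 in wild-type and 10.90 in transgenic muscle, a difference of 0.09. Junb, an immediate early gene that can restrain JUN, was at 6.94 and 7.20, a difference of 0.26 or 1.20-fold. Jund, which is expressed steadily in most tissues and is the least inducible of the family, was at 8.80 and 8.54, a difference of -0.26. The differences of Junb and Jund were equal in size and opposite in sign, and 25.3% of the genes had a larger one. Fos was thus higher in the array in which its 3 JUN partners lay between -0.26 and 0.26.

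**Figure D2:**
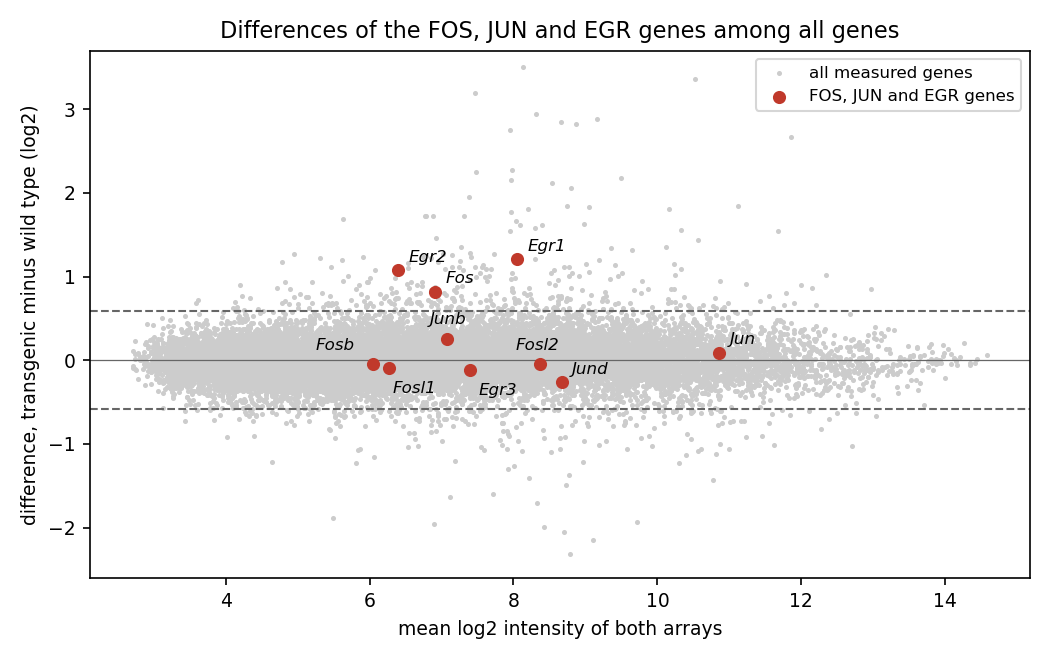
Difference between the arrays (log2, transgenic minus wild type) against the mean log2 intensity of both arrays for all 19938 genes (grey) and the 10 members (red, named), with dashed lines at 1.5-fold. Egr1 (1.21), Egr2 (1.08) and Fos (0.82) lie above the upper line and the other 7 members lie within the grey band.

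Genes that are switched on in the same acute programme differed in both directions. Of 48 other immediate early genes, 31 were above 0 and 17 below, with a median difference of 0.15. Over all 19938 genes, 46.9% were above 0, with a median of 0.00. Among those that passed the level filter, 53.5% were above 0, with a median of 0.03. The filter was passed by 40 of the 48. Of these, 6 were at least 1.5-fold higher and 1 at least 1.5-fold lower, where 2.66% and 1.71% of all genes that passed the filter were. These shares, and the shares above 0 just given, are also the background for the lists that follow. Ankrd1, a titin-linked stress sensor gene of muscle, had the largest difference, at 8.13 and 9.96 (1.83). Ccn1, a secreted matrix protein gene that SRF and YAP drive, was at 9.65 and 10.80 (1.15). Both differences were larger than that of Egr2.

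Atf3, a stress-induced bZIP factor that pairs with JUN proteins, was at 8.14 and 8.88 (0.74). Nr4a3, an orphan nuclear receptor gene induced by exercise, was at 6.45 and 7.17 (0.72), so that it passed the filter only through the transgenic array. Hbegf, an EGF receptor ligand gene, was at 8.29 and 8.96 (0.67), and Sik1, a kinase gene that CREB induces, was at 8.46 and 9.09 (0.63). Sik1 lost the 1.5-fold mark when quantile normalization was repeated. Gadd45b, a growth arrest gene, was the exception, at 9.47 and 8.50 (-0.97). Several classical members of the programme, named after their values were seen, differed little: Ier2 (under the filter) by -0.15, Myc by 0.01, Nr4a1 by -0.21, Socs3 by 0.02 and Zfp36 by 0.31. Others, also named afterwards, came nearer to 1.5-fold. Among them were Klf2 (0.56), Per1 (0.54) and Klf6 (0.53) above 0, and Rgs2 (-0.52) and Gadd45g (-0.46) below. Within this list too, some genes lay past 1.5-fold and most lay within it.

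The other bZIP factors that can pair with AP-1 proteins had near-equal levels. Of 23 measured, 14 were above 0 and 9 below, with a median of 0.03. Atf3, which is also on the immediate early list, was the only one to pass 1.5-fold, and Batf, an AP-1 factor of lymphocytes, was lowest at -0.40 and under the level filter. Among 7 partners and co-repressors of EGR factors, 6 were above 0, with a median of 0.07. Nab2, a co-repressor that EGR proteins induce and that then restrains them, read 8.37 in wild-type and 9.23 in transgenic muscle, a difference of 0.86 or 1.82-fold. Its relative Nab1, named after its value was seen, was at 8.34 and 8.50 (0.16). Wt1, a zinc finger factor that binds EGR sites, was lowest at -0.15 and under the level filter. The list also counts Egr4 (0.02), itself an EGR gene and under the filter.

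The kinases and factors that act upstream of these genes differed little at the RNA level. A list of 10 genes held SRF, its cofactors with the ternary complex factors, and the MEF2 factors, which are not SRF cofactors. Of these, 4 were above 0, 5 below and 1 at 0, and 0 reached 1.5-fold. The 4 above 0, some named after their values were seen, were Mef2a, Elk4 (0.31), Mef2c (0.27) and Mef2d (0.04). Mef2a, a muscle transcription factor gene, was highest at 0.38 and Mrtfa, an actin-regulated SRF coactivator gene, lowest at -0.49. Of 23 measured genes of the MAP kinase cascade, 9 were above 0 and 13 below, with a median of -0.02, and again 0 reached 1.5-fold. They ran from Map2k6, a p38 activator (-0.54), to Rps6ka5, the histone kinase MSK1 (0.47). Kinase activity, through which the cascade acts, is not read by an RNA array.

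Feedback genes of the cascade differed in both directions. Of 17 MAP kinase phosphatase, Sprouty and related genes, 12 were above 0 and 5 below, with a median of 0.09. Dusp7, a MAP kinase phosphatase gene, was the single gene past 1.5-fold, and it was lower, at 10.64 and 9.95 (-0.69). Dusp4, which encodes a nuclear phosphatase of the same family, was highest at 6.24 and 6.81 (0.57), just short of 1.5-fold.

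Most known target genes of AP-1 and EGR factors lay within 1.5-fold, and a few differed by amounts near that of Fos, in both directions. Of 19 AP-1 targets, 12 were above 0, with a median of 0.15, and 10 passed the level filter. Mt2, a metallothionein gene that metals and glucocorticoids also induce, was at 8.95 and 9.96 (1.01). Nqo1, a quinone reductase gene also driven by NRF2, was at 9.43 and 8.64 (-0.79). Of 14 EGR1 targets, 9 were above 0, with a median of 0.16. Nab2, again, was the only one past 1.5-fold, and the growth factor gene Pdgfa was lowest at -0.43. Targets were listed from general knowledge of other cell types, so their regulation in muscle was not shown here.

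**Figure D3:**
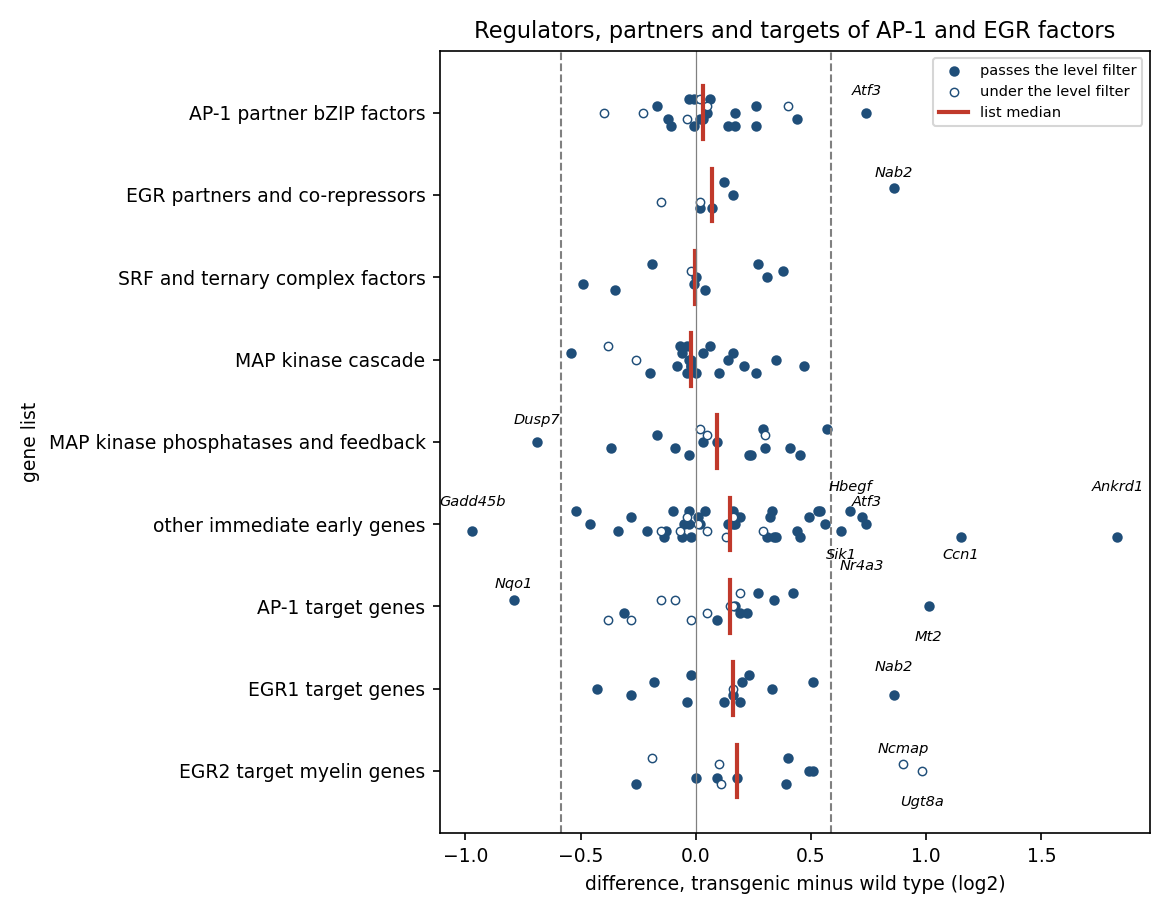
Difference between the arrays (log2, transgenic minus wild type, horizontal axis) for each gene of 9 lists (vertical axis, points spread vertically for legibility), with filled points for genes passing the level filter, open points for those under it, red bars for list medians and dashed lines at 1.5-fold. Most points lie between the lines, and Atf3, Ccn1, Ankrd1, Nab2 and Mt2 are among those to the right of them.

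Egr2 is also a marker of myelinating Schwann cells, so myelin genes were set beside it. Of 13 measured genes on a myelin list, most of them known EGR2 targets, 10 were above 0, 2 below and 1 at 0. Their median was 0.18. The list also holds the transcription factor genes Sox10 and Pou3f1, which are not myelin genes driven by EGR2. None passed both the filter and 1.5-fold. Ncmap, a myelin membrane protein gene, was at 5.41 and 6.31 (0.90) and Ugt8a, which makes myelin galactolipid, at 5.52 and 6.50 (0.98), both under the filter in each array. Pou3f1, a factor of immature Schwann cells, was lowest at -0.26. Of 7 measured Schwann cell markers, 6 were above 0 and 3 passed the filter. Their summed intensity on the log2 scale went from 11.52 in wild-type to 11.91 in transgenic muscle. Most of that sum came from 1 gene, Pmp22 (11.24 and 11.64). Mbp, Ncmap, Pmp22 and Sox10 are on the myelin list too, so the 2 lists are not separate evidence. Cdh19 (5.24), Gfap (4.98) and Ncmap lay under the olfactory receptor level in wild-type muscle and were named for that after their values were seen. In bulk tissue, fewer cells of a type and less RNA per cell cannot be told apart, and the part of nerve in the Egr2 value was not tested.

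Other cell types of the tissue also produce immediate early factors, and some of their markers differed between the arrays. Muscle identity was clear, since all 14 fibre markers were at 13.11 to 14.44 in the wild-type array and differed by -0.15 to 0.36. White adipocyte markers were higher for 8 of 8 genes, 7 of them by at least 1.5-fold, with a median of 1.38 and summed log2 levels of 11.77 (wild type) and 12.65 (transgenic). Leptin (Lep), at 5.86 and 9.06, had the largest difference of them. Lep, Pck1 (6.59 in wild type) and Slc7a10 (6.12 in wild type) met the level filter only through the transgenic array. Fibroblast markers were higher for 9 of 9 genes, with a median of 0.23 and summed levels of 13.83 and 14.02. Only 1 of them, Lum (8.87 and 9.61), was past 1.5-fold. Medians were 0.22 over 8 smooth muscle and pericyte markers (12.71 and 12.81), 0.16 over 8 macrophage markers (10.40 and 10.55), 0.15 over 8 satellite cell markers (11.03 and 11.22), 0.00 over 9 endothelial markers (12.75 and 12.68) and -0.10 over 6 tendon markers (12.63 and 12.70). Of the smooth muscle and pericyte markers, 1 was past 1.5-fold, Cnn1 (6.47 and 7.35), which met the filter only through the transgenic array. All 6 neutrophil markers lay under the filter, with a median of 0.02 and summed levels of 7.49 and 7.47. The 2 red blood cell markers gave 7.87 and 8.04. The part of these cells in the values of Egr1, Egr2 and Fos was not tested.

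**Figure D4:**
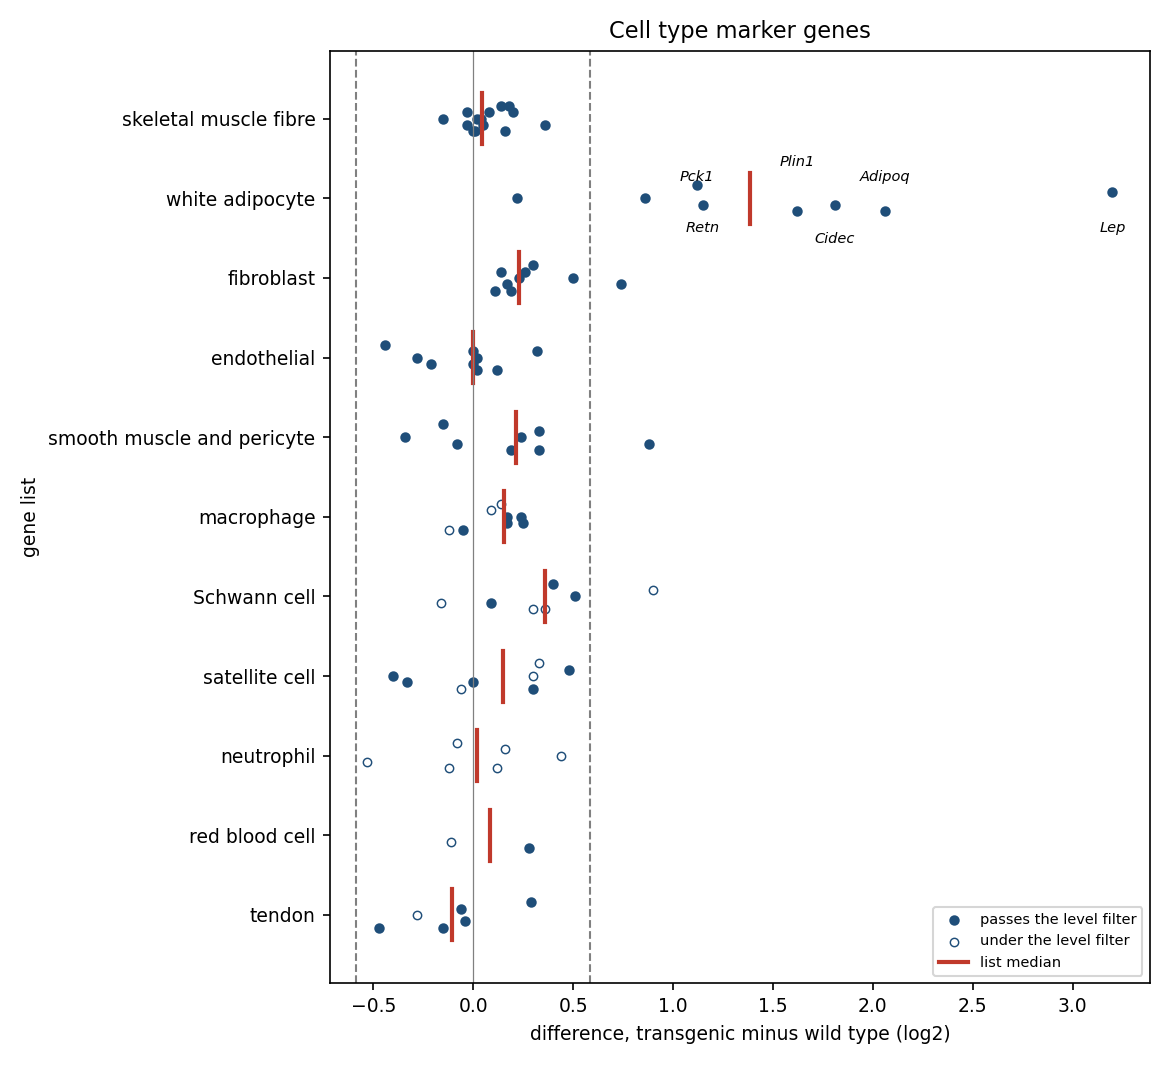
Difference between the arrays (log2, transgenic minus wild type, horizontal axis) for marker genes of 11 cell types (vertical axis, points spread vertically for legibility), drawn with filled points for genes passing the level filter, open points for those under it, red bars for list medians and dashed lines at 1.5-fold. White adipocyte markers reach 3.20, and skeletal muscle fibre markers stay between -0.15 and 0.36.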

How the data were processed

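Values were used as the authors deposited them: log2 intensities of 35556 probe sets, to 2 decimals, from RMA in Partek per the submitters' processing notes, and the sources used here give neither versions nor the steps run. This method compresses large ratios and gives no detection call. The median was 6.06 in both arrays. The 2 arrays limit the precision of each value, and no scanner intensities were used here.

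Of the probe sets, 21789 carried 1 gene symbol in the platform annotation, which can be old, 1621 several and 12146 none. Symbols were updated through Entrez identifiers and RefSeq (GRCm38.p6). For genes with several probe sets the one of highest mean was used. Counts used a level filter (higher value at or above its median over genes, 6.79) and 1.5-fold. With 1 array per genotype no test was run. Named were all members, genes of the 9 regulator, partner and target lists past filter and fold, the highest and lowest of each such list, the nearest genes in difference, and Stx4a. Marker lists are given as summaries with few genes named, those after their values were seen. The members and lists were chosen with earlier results of these data known, and lists share some genes. The counting code was run on simulated data (Python 3.11.15, pandas 2.3.3). Unchanged genes there could not pass 1.5-fold and planted differences lay past it, so the run checked only the code. It says nothing of false calls in the real arrays. Alternatives were no filter, the filter on both arrays, 2-fold, averaged probe sets, median centring, loess (span 0.3, 3 iterations) and repeated quantile normalization.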

Additional observations from a re-analysis of the deposited data

How the results depend on the processing

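Of 74 comparisons of a value with an alternative, 71 kept the count within 1.5 times or the difference within 0.1 on the log2 scale, 3 moved and 0 reversed. Some of these could not change. Averaging leaves a member with 1 probe set as it was. The member median used no filter in the main setting, so dropping the filter could not move it. With the level filter asked of both arrays, 1 member (Egr1) in place of 3 was at least 1.5-fold higher, since Fos and Egr2 have wild-type values under the filter. At 2-fold, 2 members were higher (Egr1 and Egr2) in place of 3. Of the other immediate early genes, 2 were then higher (Ccn1 and Ankrd1) in place of 6, and 0 lower in place of 1. Over averaged probe sets, centring, loess and quantile scaling, Egr1 ranged from 1.16 to 1.21, Egr2 from 1.06 to 1.09, Fos from 0.79 to 0.82 and Jund from -0.32 to -0.26. Each of the 10 members kept its sign under these 4 alternatives, of which averaging could not alter a member and centring moved all members by the same -0.02. No paired analysis was possible because each genotype has 1 array. Low signal limits what can be read for Fosb, Fosl1 and the wild-type values of Egr2 and Fos.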

Other observations

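With 2 arrays, likeness of pattern to Egr1 is only likeness of the difference. Among genes that passed the level filter, the nearest in difference to Egr1 (1.21) were Trp63 (7.69 and 8.90 in the wild-type and transgenic arrays, a difference of 1.21), Cpne2 (8.59 and 9.79, 1.20), and Orm1 (6.25 and 7.47) and Uchl1 (7.40 and 8.62), both at 1.22 and equally near as Cpne2.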
